A study of Homo sapiens with 4 samples.

Results

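The genes examined are CIITA, the class II transactivator, and 9 genes of the MHC class II pathway that it controls: HLA-DRA, HLA-DRB1, HLA-DQA1, HLA-DQB1, HLA-DPA1, HLA-DPB1, HLA-DMA, HLA-DMB and CD74. They are 10 of 20046 annotated protein-coding genes and were chosen by name, with no measured value in the rule. A peak belonged to them if it overlapped a gene body or the 10 kb upstream of it in the GENCODE annotation of GRCh38. By this rule the genes held 12 of the 59629 WT peaks, 20 of the 67470 WT-IFN-γ peaks, 15 of the 63203 sgFLI1 peaks and 17 of the 59923 sgFLI1-IFN-γ peaks. Overlapping peaks of the 4 lists merged into 21 regions, of 93211 in the whole data set.

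ATAC-seq, which cuts and tags open chromatin with a transposase, was performed on HK1, an established human nasopharyngeal carcinoma cell line. The 4 groups were WT HK1 cells without treatment (WT), WT cells given IFN-γ (WT-IFN-γ), FLI1-KO cells without treatment (sgFLI1) and FLI1-KO cells given IFN-γ (sgFLI1-IFN-γ). FLI1 is an ETS family transcription factor and had been disrupted by CRISPR/Cas9. The labels do not say which guide was used or whether the FLI1-KO cells were 1 clone. Each group had 1 library, so no difference between groups has a replicate check, and every interval below covers counting error only.

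The summit height of a peak is given as tags, the number of extended sequence tags piled up at its highest base. Tag density, a measure of depth taken from each list, was 8.04 tags per kb for WT, 8.84 for WT-IFN-γ, 6.93 for sgFLI1 and 6.86 for sgFLI1-IFN-γ. Scaled tags were divided by this density and brought to the depth of sgFLI1-IFN-γ, the shallowest library. Of 5 epithelial markers, EPCAM had a peak summit within 1 kb of a start in all 4 lists and CDH1 in 3, with 25 tags in WT-IFN-γ, and in FLI1-KO cells 18 without and 14 with IFN-γ. KRT5, KRT14 and TP63 had none in any list. Among leukocyte markers, PTPRC, CD3E, CD79A and SPI1 had none in any list and ITGAX had one in every list.

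MHC class II molecules are pairs of an α and a β chain that present peptides to CD4+ T cells. Their expression is normally limited to antigen-presenting cells, but many epithelial and tumour cells acquire it under IFN-γ. CIITA does not bind DNA itself and is recruited by the RFX complex, CREB and NF-Y to the X and Y boxes of class II promoters. The human CIITA gene is read from several promoters, of which pI serves dendritic cells, pIII B cells and pIV the response to IFN-γ.

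Class II promoter sequences are shown first, since the boxes they carry define the family, with the chromatin of each described further on. The motifs searched on both strands were AACNGATG, the core of the X1 box, and GATTGG, the Y box bound by NF-Y. The promoters, from RefSeq on GRCh38.p14 and written 5′ to 3′ toward the gene, cover 250 bases up to the start, less the 25 bases in HLA-DMA and 59 in CD74 that an annotated exon overlaps. They lie on the minus strand at chr6:32589849-32590098 for HLA-DRB1, chr6:32941029-32941278 for HLA-DMB, chr6:32953123-32953347 for HLA-DMA and chr5:150412970-150413160 for CD74, and on the plus strand at chr6:33075740-33075989 for HLA-DPB1. Capitals mark matches to these strings, called X1 core and Y box here whatever their strand or spacing.
HLA-DRB1: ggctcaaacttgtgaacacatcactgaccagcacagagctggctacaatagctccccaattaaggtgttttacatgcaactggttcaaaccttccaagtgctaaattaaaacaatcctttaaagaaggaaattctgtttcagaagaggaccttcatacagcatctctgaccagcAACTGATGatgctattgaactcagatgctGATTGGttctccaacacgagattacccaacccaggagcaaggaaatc
HLA-DMB: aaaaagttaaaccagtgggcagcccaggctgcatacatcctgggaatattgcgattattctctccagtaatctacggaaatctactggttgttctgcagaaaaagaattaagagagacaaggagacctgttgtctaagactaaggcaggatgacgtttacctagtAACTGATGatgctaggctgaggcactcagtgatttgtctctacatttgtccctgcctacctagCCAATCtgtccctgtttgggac
HLA-DMA: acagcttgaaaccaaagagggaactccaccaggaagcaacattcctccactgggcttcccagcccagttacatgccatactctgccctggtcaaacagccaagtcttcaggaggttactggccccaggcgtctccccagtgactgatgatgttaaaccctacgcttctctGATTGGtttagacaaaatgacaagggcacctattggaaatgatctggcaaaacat
HLA-DPB1: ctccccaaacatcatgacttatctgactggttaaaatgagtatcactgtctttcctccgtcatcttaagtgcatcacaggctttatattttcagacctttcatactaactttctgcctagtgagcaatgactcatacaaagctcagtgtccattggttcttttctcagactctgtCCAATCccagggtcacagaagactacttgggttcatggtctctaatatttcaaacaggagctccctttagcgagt
CD74: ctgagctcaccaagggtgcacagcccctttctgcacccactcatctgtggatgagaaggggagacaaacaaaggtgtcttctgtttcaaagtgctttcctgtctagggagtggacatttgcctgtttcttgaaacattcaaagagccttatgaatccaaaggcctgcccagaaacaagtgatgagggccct
HLA-DRB1 and HLA-DMB held both an X1 core, beginning 76 and 85 bases upstream of the start, and a Y box, 47 and 22 bases upstream. In HLA-DMA and HLA-DPB1 a Y box began 80 and 75 bases upstream, and CD74 held neither string. The Y box matches of HLA-DMB and HLA-DPB1 were CCAATC, the opposite strand of GATTGG. Whether the strand and spacing of any match are those of a working class II promoter was not examined. RefSeq promoters were matched for 8 of the 10 genes. Of the 9 promoters of these 8 genes, 5 held a Y box and 2 an X1 core, compared with 14.1% and 1.65% of all 35116 promoters in that table.

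At CIITA, the gene that switches the family on, the WT-IFN-γ library carried the 3 tallest peaks of the locus, and at the same sites sgFLI1-IFN-γ had lower ones or none. CIITA (ENSG00000179583.21) covers chr16:10866222-10943021 on the plus strand. It held 3 peaks in WT cells and 8 with IFN-γ, and 6 peaks in FLI1-KO cells and 7 with IFN-γ. Its annotated transcript starts form 9 clusters when starts within 500 bp are joined. The first, at 10866222 to 10866260, the second, at 10877198 to 10877331, and the third, at 10878969, are called pI, pIII and pIV here by their order along the gene. Distances are given from the canonical start at 10877202 in the pIII cluster.

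pIV, the IFN-γ-responsive promoter, was listed as open in WT-IFN-γ alone. Its peak, chr16:10878174-10879016 in intron 1 of the canonical transcript, had 128 tags at the summit (95% Poisson interval 107 to 152) and ranked at percentile 90.1 of that list by significance. No peak was listed there in WT, sgFLI1 or sgFLI1-IFN-γ. At the depth of sgFLI1-IFN-γ the WT-IFN-γ signal corresponds to 99.4 tags. In that library a peak would have been listed from 7 tags at the library's own background, or from 29 tags at the highest background of any list in this region. The same limits held for sgFLI1, and for WT they were 8 and 32 tags against 116 corresponding ones. A summit as high as that of WT-IFN-γ would therefore have been listed in each of the other libraries.

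pIII, the B cell promoter, was open in 3 libraries. Its summit had 111 tags (91.3 to 134) in WT-IFN-γ, and in FLI1-KO cells 20 (12.2 to 30.9) without and 27 (17.8 to 39.3) with IFN-γ, and no peak was listed in WT. WT-IFN-γ stood well above both FLI1-KO libraries, whose intervals overlapped. Per unit of depth, sgFLI1-IFN-γ had 0.313 times the WT-IFN-γ signal (95% interval 0.198 to 0.481), or 3.19-fold less. Of the 46911 peaks shared one to one by these libraries, 0.486% had a ratio as low. No summit lay within 1 kb of pI in any list, nor of the 6 start clusters downstream of pIV.

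A pair of upstream elements followed the same order. The summit 14.5 kb upstream, outside the outermost CIITA start, had 76 tags (59.9 to 95.1) in WT-IFN-γ, and in FLI1-KO cells 23 (14.6 to 34.5) without and 27 (17.8 to 39.3) with IFN-γ. The summit 5.61 kb upstream, between pI and pIII, had 136 tags (114 to 161) in WT-IFN-γ, and in FLI1-KO cells 30 (20.2 to 42.8) without and 38 (26.9 to 52.2) with IFN-γ. Neither was listed in WT. With IFN-γ, the FLI1-KO over WT ratio was 0.458 (0.284 to 0.718) at the outer element and 0.360 (0.244 to 0.519) at the inner one, values that 2.27% and 0.833% of shared peaks equalled or fell below. The 200 bases around the WT-IFN-γ summits of both, from GRCh38 on the plus strand at chr16:10862596-10862795 and chr16:10871488-10871687, are printed because these peaks outside annotated promoters were absent from WT and tall in WT-IFN-γ. No base is in capitals, since neither window held an X1 core, a Y box, an E box (CACGTG), an ETS site (CCGGAAGT) or a pair of GAAA with any 2 bases between them, an IRF-like site.
CIITA 14.5 kb upstream: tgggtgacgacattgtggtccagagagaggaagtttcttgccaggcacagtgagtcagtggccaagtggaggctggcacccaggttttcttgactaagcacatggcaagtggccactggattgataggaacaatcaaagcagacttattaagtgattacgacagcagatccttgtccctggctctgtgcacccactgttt
CIITA 5.61 kb upstream: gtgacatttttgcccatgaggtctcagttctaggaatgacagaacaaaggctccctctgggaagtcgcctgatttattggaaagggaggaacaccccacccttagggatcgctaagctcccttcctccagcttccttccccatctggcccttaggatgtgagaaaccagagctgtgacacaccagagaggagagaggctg
Within 150 bp of the summit, the GAAA pair occurred once at pIII and at 2 positions at pIV, and in 6.18% of all 93211 regions. An E box lay at pIV as well and was found in 5.15% of all regions.

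**Figure D1:**
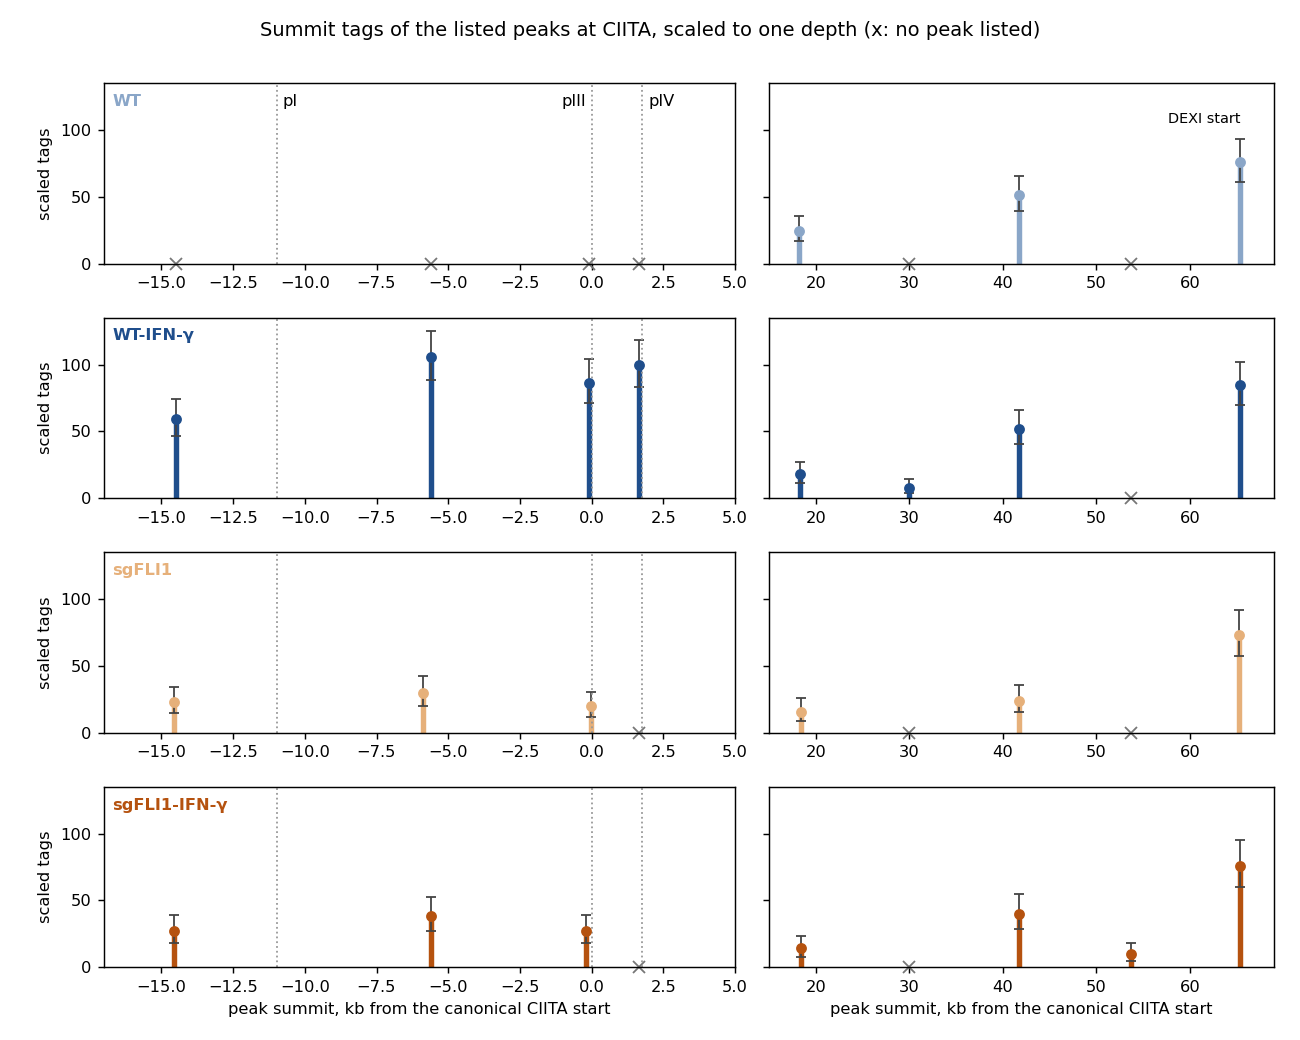
Scaled summit tags of every listed peak at CIITA in the 4 libraries, by distance of the summit from the canonical start in kb, with 95% Poisson intervals and the pI, pIII and pIV starts as dotted lines. The 4 summits from 14.5 kb upstream to pIV stood at 59.0 to 106 scaled tags in WT-IFN-γ, were absent from WT, and stood at 19.8 to 38.0 where listed in the FLI1-KO libraries.

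In FLI1-KO cells, IFN-γ did not move these 3 peaks beyond counting error. The IFN-γ over untreated ratio was 1.19 (0.655 to 2.17) at 14.5 kb, 1.28 (0.772 to 2.14) at 5.61 kb and 1.36 (0.737 to 2.57) at pIII. All 3 intervals hold 1, and they do not exclude an increase of over 2-fold. Across the 48175 peaks shared by the FLI1-KO libraries the median log2 ratio was -0.14, and the 3 ratios were above those of 87.9%, 92.6% and 95.2% of them. No ratio could be formed in WT cells, because the untreated list had no peak. Without IFN-γ, the 3 regions were thus listed in sgFLI1 and not in WT. In WT a peak would have been listed from 8 tags at the library background and from 16, 28 and 33 tags at the highest background seen there. The sgFLI1 summits had 23, 30 and 20 tags in a somewhat shallower library. A summit like that of sgFLI1 at pIII could therefore have gone unlisted in WT at that highest background.

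The local background around the CIITA promoters was higher in WT-IFN-γ than in either FLI1-KO library. MACS sets a local background for each peak from the tags around it, the peak's own included, and at the 4 regions from 14.5 kb upstream to pIV it was 3.38, 7.40, 8.92 and 8.81 times the library background in WT-IFN-γ. In sgFLI1-IFN-γ it was 1.55, 2.45 and 2.45 times the library background at the 3 listed regions, and in sgFLI1 1.18, 1.66 and 1.67 times. Scaled for depth, the local background of sgFLI1-IFN-γ was 0.471, 0.339 and 0.281 times that of WT-IFN-γ, which 1.04%, 0.224% and 0.0789% of shared peaks equalled or fell below. Because fold enrichment divides by this background, the deposited fold values differed far less than the tags. They were 9.12, 7.93 and 5.43 in WT-IFN-γ against 7.53, 7.39 and 5.29 in sgFLI1-IFN-γ, or ratios of 0.826, 0.932 and 0.975. Tags of the peak itself, and of tall peaks close by, can enter this background. The lower background of sgFLI1-IFN-γ at these 3 regions is therefore not a result separate from its lower summits.

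**Figure D2:**
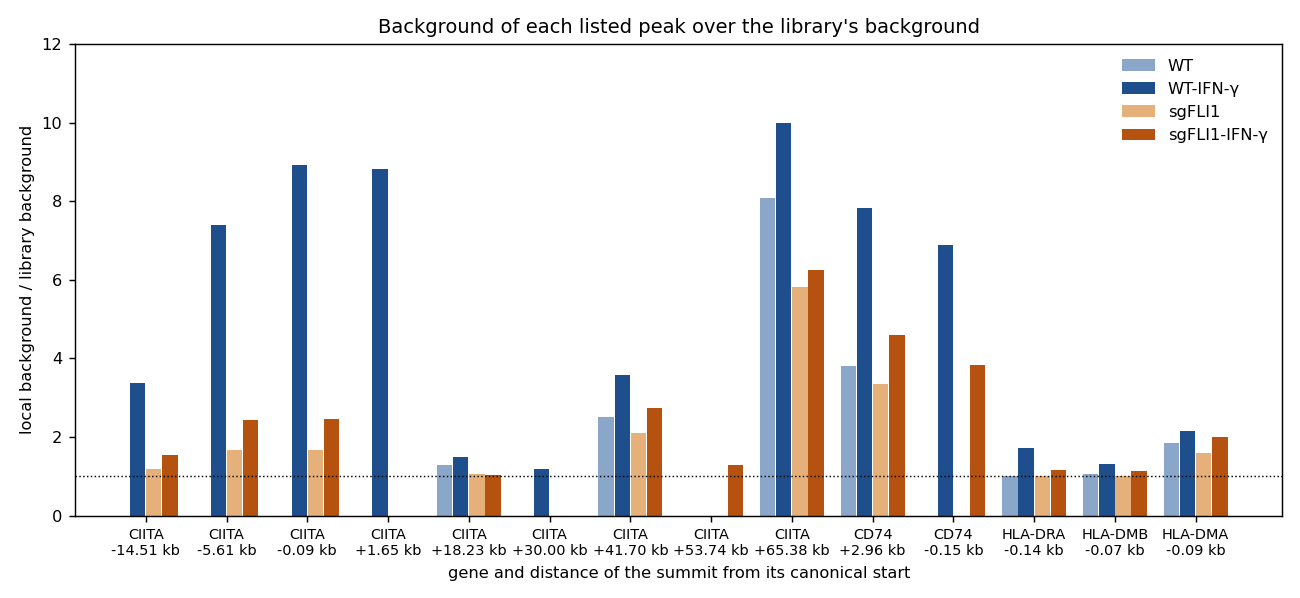
Local background of each listed peak divided by the library background, for peaks at CIITA, CD74 and the HLA-DRA, HLA-DMB and HLA-DMA promoters (x axis: gene and distance of the summit from its canonical start in kb). Bars of WT-IFN-γ reached 7.40 to 8.92 at the CIITA summits from 5.61 kb upstream to pIV and 6.90 at the CD74 start, against at most 2.45 and 3.82 in sgFLI1-IFN-γ. At the DEXI start the bars stood at 9.99 in WT-IFN-γ, 8.08 in WT, 5.82 in sgFLI1 and 6.24 in sgFLI1-IFN-γ. At the CD74 intron site they stood at 7.83 in WT-IFN-γ and 4.58 in sgFLI1-IFN-γ.

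Further into CIITA the 2 IFN-γ libraries were closer to each other. At 18.2 kb downstream, in exon 2, the summit had 29 tags in WT cells and 23 with IFN-γ, against 16 in FLI1-KO cells and 14 with IFN-γ, and all intervals of the 4 ratios held 1. At 41.7 kb, in intron 16, it had 60 tags in WT cells and 67 with IFN-γ, against 24 in FLI1-KO cells and 40 with IFN-γ. There sgFLI1 was the low library, with 0.464 times the WT signal (0.276 to 0.757), a value that 1.32% of shared peaks equalled or fell below. The FLI1-KO over WT ratio with IFN-γ was 0.769 (0.506 to 1.16). In FLI1-KO cells the IFN-γ over untreated ratio was 1.68 (0.991 to 2.92), barely holding 1, and 99.1% of shared peaks had a ratio at or below it. At 65.4 kb, near the 3′ end of the gene body and at the start of the neighbouring gene DEXI, the summit had 89 tags in WT cells and 109 with IFN-γ, against 74 in FLI1-KO cells and 76 with IFN-γ, and the ratio with IFN-γ was 0.898 (0.661 to 1.21). The remaining CIITA regions were 2 weak peaks of 10 tags, one in WT-IFN-γ at 30.0 kb and one in sgFLI1-IFN-γ at 53.7 kb.

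Peaks elsewhere around CIITA also tended to lower FLI1-KO over WT ratios. Among shared peaks within 5 Mb of the gene, the median log2 FLI1-KO over WT ratio was -0.33 with IFN-γ (96 peaks) and -0.19 without (89 peaks), compared with -0.02 and 0.05 over the genome. Fewer copies of the segment and less open chromatin per copy cannot be told apart in these lists. On the same scale the 3 upstream CIITA regions stood at -1.13, -1.47 and -1.67, and all 3 intervals remained below 1 after scaling to these neighbours. The middle 95% of the 96 peaks with IFN-γ ran from -1.47 to 1.24. The value of -1.13 lay within that range, -1.47 at its lower edge and -1.67 below it. The intervals cover counting error only and do not by themselves set the 3 regions apart from these peaks. The median was -0.02 with IFN-γ within 5 Mb of the class II genes (384 peaks) and 0.01 within 5 Mb of CD74 (110 peaks).

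At the class II genes themselves, the promoters of HLA-DRA, HLA-DMA and HLA-DMB were open in every library, and no ratio at them left the range of counting error. From HLA-DRA to HLA-DPB1 the cluster spans 649.8 kb, chr6:32439878-33089696. It held 20 peaks in WT cells and 25 with IFN-γ, and 21 peaks in FLI1-KO cells and 24 with IFN-γ. These counts take in peaks of the span outside the windows of the genes examined. Per Mb they were 30.8 and 38.5 in WT cells, and 32.3 and 36.9 in FLI1-KO cells. The whole chromosome had 21.8 and 25.1 per Mb in WT cells, and 22.4 and 21.5 in FLI1-KO cells.

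HLA-DRA, the invariant α chain of HLA-DR, had 1 peak in each list, with its summit 140 bp upstream of the start in the region chr6:32439333-32440040. It had 19 tags in WT cells and 34 with IFN-γ, against 18 in FLI1-KO cells and 24 with IFN-γ. The IFN-γ libraries were the higher of each pair, but the ratios of 1.63 (0.903 to 3.02) in WT and 1.35 (0.701 to 2.63) in FLI1-KO cells held 1 within their intervals. The FLI1-KO over WT ratio with IFN-γ was 0.909 (0.516 to 1.58). An X1 core and 2 Y boxes lay within 150 bp of this summit.

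HLA-DRB1, the β chain of HLA-DR, and HLA-DQA1, the α chain of HLA-DQ, had no peak in any list, although the HLA-DRB1 promoter printed above carries both boxes. The 50-base words within 500 bp of each start were searched on the primary chromosomes, without alternative haplotypes. Of these words, 83.0% were found once at HLA-DRB1 and 94.96% at HLA-DQA1, compared with 99.2% or more at the other 8 genes. Differences between the HLA alleles of HK1 and the reference were not considered. Reads that align to several places had been removed, and the part of this in the missing peaks was not tested. HLA-DQB1, the β chain of HLA-DQ, had a single peak of 14 tags, in WT-IFN-γ. Its summit lay 1805 bp upstream of the canonical start, beside an alternative start of the gene, and held a Y box. In the other libraries a peak there would have been listed from 7 or 8 tags.

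HLA-DPA1 and HLA-DPB1, the α and β chains of HLA-DP, overlap at their 5′ ends on opposite strands, and their windows share peaks. The HLA-DPB1 start had 15 tags in WT cells with IFN-γ and 14 in FLI1-KO cells without it and was not listed in the other libraries, so its listing followed neither treatment nor genotype. A site 2.25 kb upstream of HLA-DPA1 was level, with 14 tags in WT cells and 16 with IFN-γ, against 14 in FLI1-KO cells and 14 with IFN-γ. The DQB1, DPB1 and DPA1 peaks are below a −log10 q of 10, the limit for giving a region in full, and were named after their values were seen.

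HLA-DMA and HLA-DMB encode HLA-DM, which loads peptides onto class II molecules. Both promoters were open in all 4 libraries. The HLA-DMA summit, 94 bp upstream in chr6:32952924-32953460, had 27 tags in WT cells and 46 with IFN-γ, against 26 in FLI1-KO cells and 27 with IFN-γ. WT-IFN-γ was the highest of the 4, at a ratio to WT of 1.55 (0.944 to 2.59), against 1.05 (0.589 to 1.87) for IFN-γ in FLI1-KO cells. The FLI1-KO over WT ratio with IFN-γ was 0.756 (0.452 to 1.24).

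The HLA-DMB summit, 73 bp upstream in chr6:32940796-32941541, had 19 tags in WT cells and 25 with IFN-γ, against 19 in FLI1-KO cells and 15 with IFN-γ. All 4 ratios between these libraries held 1 within their intervals. A site 6.99 kb upstream of HLA-DMB had 25 tags in WT, 32 in WT-IFN-γ and 14 in sgFLI1-IFN-γ. It was not listed in sgFLI1, where the WT-IFN-γ signal corresponds to 25.1 tags and a peak would have been listed from 7 or 8. With IFN-γ its FLI1-KO over WT ratio was 0.564 (0.278 to 1.09).

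The extended annotation of HLA-DMA also takes in 3 regions at the starts of BRD2, a gene outside the pathway. These strong promoters had 102 to 195 tags in every library, and with IFN-γ their FLI1-KO over WT ratios were 1.04 to 1.08. At the outermost, sgFLI1 had 1.33 times the WT signal (1.08 to 1.64), and sgFLI1-IFN-γ had 0.762 times the sgFLI1 signal (0.611 to 0.948).

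CD74, the invariant chain that guards the class II groove and sits on chromosome 5, far from the cluster, had a start peak listed with IFN-γ in both genotypes and in neither untreated library. That peak, 146 bp upstream of the canonical start in chr5:150412577-150413200, had 44 tags (32.0 to 59.1) in WT-IFN-γ and 25 (16.2 to 36.9) in sgFLI1-IFN-γ, and was not listed in WT or sgFLI1. At the highest background seen there, a peak would have been listed from 27 tags in WT and 24 in sgFLI1, where the WT-IFN-γ signal corresponds to 40.05 and 34.5 tags. The 25 tags of sgFLI1-IFN-γ correspond to 25.3 at the depth of sgFLI1, close to that limit of 24, so a similar summit could have gone unlisted in sgFLI1 at a slightly higher background. The FLI1-KO over WT ratio was 0.732 (0.429 to 1.22). This start peak has a −log10 q of at most 7.16 and was likewise named after its values were seen.

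A stronger CD74 site in intron 1, 2.96 kb downstream of the start, was open throughout, with 55 tags in WT cells and 70 with IFN-γ, against 36 in FLI1-KO cells and 40 with IFN-γ. Its IFN-γ ratios were 1.16 (0.802 to 1.68) in WT and 1.12 (0.698 to 1.81) in FLI1-KO cells. The local background here was 3.81 times the library background in WT cells and 7.83 times with IFN-γ, and 3.35 and 4.58 times in FLI1-KO cells without and with IFN-γ. Its deposited fold was 5.96 in WT cells and 3.89 with IFN-γ, the reverse of the order of its tags.

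**Figure D3:**
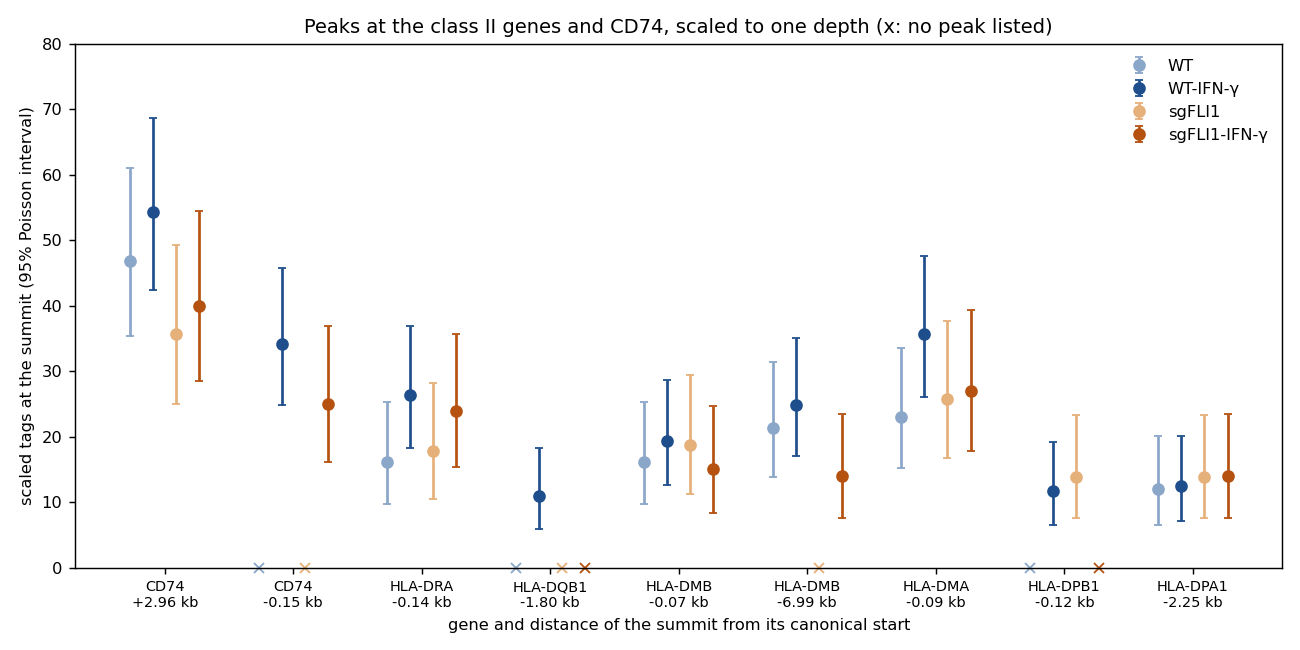
Scaled summit tags with 95% Poisson intervals for the 9 regions at the class II genes and CD74 outside the BRD2 starts, by library (x axis: gene and distance of the summit from its canonical start in kb). Intervals of the 4 libraries overlap at HLA-DRA, HLA-DMA and HLA-DMB promoters, and the CD74 start is listed only in the IFN-γ libraries.

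Counted over all 10 genes, peaks were gained and none was lost with IFN-γ in WT cells. Each library enters several of the comparisons that follow, which are therefore not independent. Of 20 WT-IFN-γ peaks, 8 had no WT counterpart (40%, Wilson interval 21.9 to 61.3), whereas 25.2% of all WT-IFN-γ peaks had none. They were 5 at CIITA and 1 each at CD74, HLA-DQB1 and HLA-DPB1. None of the 12 WT peaks was lost with IFN-γ (upper limit 24.2%), against 15.9% of all WT peaks. Both backgrounds lie within the interval of the members.

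In FLI1-KO cells 3 of 17 peaks were gained with IFN-γ, near the background of 18%, and 1 of 15 was lost, against 22.2%. The gained peaks were the CD74 start, the site upstream of HLA-DMB and the weak CIITA peak at 53.7 kb, and the lost one was the HLA-DPB1 start. Of the 8 regions gained in WT cells, 4 had no peak in sgFLI1-IFN-γ, compared with 74.1% of all regions gained in WT. These 4 were pIV, the weak CIITA peak at 30.0 kb, HLA-DQB1 and the HLA-DPB1 start.

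Between the genotypes, 4 of 20 WT-IFN-γ peaks had no sgFLI1-IFN-γ counterpart and 1 of 17 the reverse, with 29% and 19.8% in the background. Among untreated cells, 4 of 15 sgFLI1 peaks were not in WT and 1 of 12 WT peaks was not in sgFLI1, with 25.3% and 21.4% in the background. By tags, 3 of the 14 regions given in full and listed in both IFN-γ libraries had a FLI1-KO over WT interval below 1, all at CIITA, and none had one above 1. Over all shared peaks 8.43% had an interval below 1 and 5.8% above. Of 10 such regions in untreated cells, 1 was below 1, at CIITA, and 1 above, at BRD2, with 5.38% and 9.77% in the background. For IFN-γ over untreated in WT cells, none of 11 intervals left out 1, and 3.91% of shared peaks were above and 3.6% below. In FLI1-KO cells 1 of 13 was below 1, at BRD2, and 4.15% of shared peaks were below and 0.338% above.

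**Figure D4:**
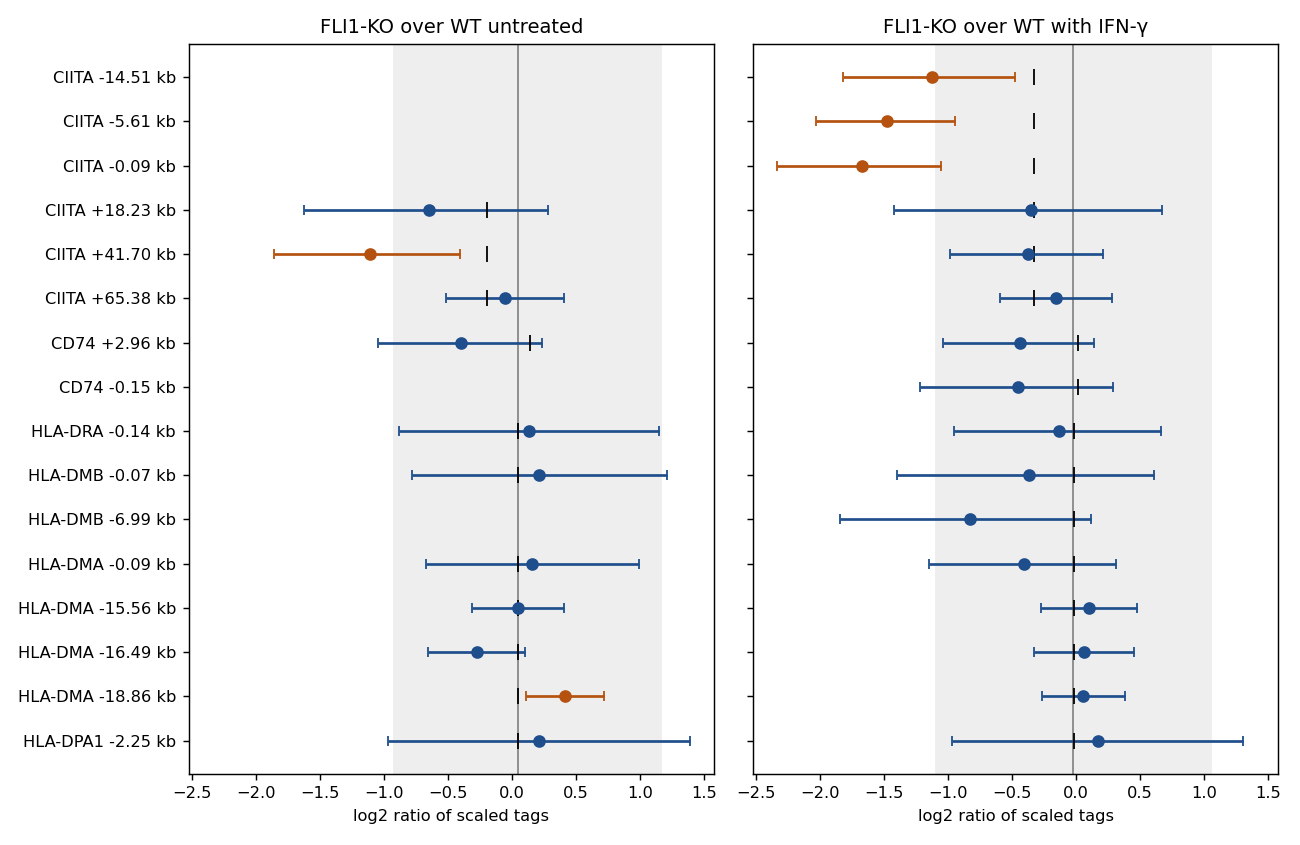
Log2 FLI1-KO over WT ratio of scaled tags with 95% intervals for each region listed in both libraries of a pair, untreated on the left and with IFN-γ on the right. The grey band holds the middle 95% of all shared peaks, the grey line their median and the black ticks the median within 5 Mb, and orange marks intervals that leave out 1, as at the 3 upstream CIITA regions with IFN-γ at -1.13 to -1.67.

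Most other genes of the pathway had a start peak in all 4 lists or in none, which does not mean equal heights. The start of each of the 9 promoter factor genes (RFX5, RFXANK, RFXAP, NFYA, NFYB, NFYC, CREB1, USF1 and IRF1) held a peak in all 4 lists. Of 9 other class II and accessory genes, CTSS, CTSL, LGMN and IFI30, which act in the endosome on the invariant chain and on antigen, were open in all lists, and HLA-DRB5, HLA-DQA2, HLA-DQB2 and HLA-DOA in none. HLA-DOB, the β chain of the HLA-DM inhibitor HLA-DO, was the only one of the 9 to vary in its listing, with 29 tags in WT-IFN-γ, and in FLI1-KO cells 12 without and 17 with IFN-γ, and had no peak in WT. Cathepsin S (CTSS), which cleaves the invariant chain and is named here after its values were seen, had 31 tags in WT cells and 58 with IFN-γ, against 13 in FLI1-KO cells and 15 with IFN-γ. With IFN-γ its FLI1-KO over WT ratio was 0.333 (0.175 to 0.596). Of the 13 genes open in all lists, the interval of this ratio lay below 1 for CTSS and, barely, for CTSL (0.739, 0.543 to 1.00) and spanned 1 for the other 11. Over all shared peaks 8.43% had such an interval below 1. These values are the highest summit within 1 kb of a start in each list, which need not be the same peak.

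X1 cores and Y boxes lay mainly at the class II starts. Within 150 bp of the summit, 6 of the 21 regions held a Y box, compared with 10.4% of all regions, and 5 of the 6 lay at the HLA-DRA, HLA-DMA, HLA-DMB, HLA-DQB1 and HLA-DPB1 starts. The 2 regions with an X1 core, HLA-DRA and HLA-DMB, were open in every library, and 2.74% of all regions held that string. None of the 21 held the ETS string CCGGAAGT, which occurred in 1.26% of all regions and says nothing of where FLI1 binds.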

How the data were processed

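The data are 4 ATAC-seq peak lists on GRCh38, 1 library per group. To make them, the authors used Trimmomatic (0.3) and Bowtie2 (2.3.4.1), dropped duplicates and reads of low mapping quality, and ran MACS (2.1.2) with a q-value cutoff of 5%. The methods also name a reproducibility filter (IDR). They do not state whether a list is from before or after it, from 1 replicate or pooled ones, or whether the transposase offset of the tag ends was corrected, which could move summits by a few bases. Duplicate removal caps the height of a summit and no molecular identifiers are described.

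For each peak the authors deposited a score (not used here), a fold enrichment ratio over local background, and a −log10 p and −log10 q. Whole-number summit pileups and backgrounds were solved for from the deposited ratio and −log10 p, which MACS computes as (pileup + 1) / (background + 1) and from a Poisson distribution. They give back both values for 100% of the peaks in each list, within 0.001 on the −log10 p scale. Tag density is the lowest background of a list divided by its shortest peak, the tag extension (249 to 274 bp), and serves to compare libraries, not as a read total. It takes the genome size given to MACS to be the same in all 4 runs. The recovery, overlap, interval and motif steps were tested on simulated data.

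Groups came from the sample titles. Peaks were shared if they overlapped by at least 1 bp. Ratios of tags have exact conditional intervals for 2 Poisson counts, shares have Wilson intervals, and neither is a test of the condition. Each ratio is set against peaks that overlap one to one in the same lists. Regions with a −log10 q of 10 or more in some list (15 of 21) were given in full, and the rest by counts unless stated. Other pathway genes were named by promoter listing within 1 kb of a start. Of the cell type markers, 1 is not reported here. The genes, lists and rules were chosen with earlier results of these data known. Alternatives were a higher −log10 q (5 or 10), lists of equal length, 3 kb in place of 10 kb upstream, 50% overlap, other scalings and the deposited fold, and the removal of regions at BRD2 and DEXI starts, chosen after seeing the data. The scripts ran on Python 3.11.15 with pandas 2.3.3, numpy 2.4.6, matplotlib 3.10.9 and scipy 1.17.1.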

Additional observations from a re-analysis of the deposited data

Results flagged for a closer look

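At the HLA-DMB promoter, tags per unit of depth were 1.20 times the untreated level with IFN-γ in WT cells and 0.798 times in FLI1-KO cells. They moved in opposite directions, and both intervals held 1. At the middle BRD2 start region, 16.5 kb upstream of HLA-DMA, the same ratios were 0.802 in WT cells and 1.01 in FLI1-KO cells, again with 1 inside both intervals. HLA-DPA1 and HLA-DPB1, whose windows share the peaks, each changed by 1 listed peak in WT cells and by -1 in FLI1-KO cells with IFN-γ, both from the peak at the HLA-DPB1 start. With 1 library per group, none of these differences between genotypes was tested.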

How the results depend on the processing

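Across the settings tried, 47 of 52 recomputed counts stayed within 1.5 times their value. All 5 that moved did so at a −log10 q of at least 10, which left 9 peaks in sgFLI1 and 10 in sgFLI1-IFN-γ, 5 regions gained and 1 lost with IFN-γ in WT cells, and 2 gained in WT cells without an sgFLI1-IFN-γ peak. The number of regions with a FLI1-KO over WT interval below 1 with IFN-γ was 3 under both other scalings and cannot be computed from the deposited fold, which has no counting interval. Of 144 recomputed ratios 137 stayed within the interval of the reported value. The other 7 came from the deposited fold. They were 0.826, 0.932 and 0.975 at the upstream CIITA regions, still below 1, and 4 that crossed 1 where the reported interval held 1. At the DEXI start, 65.4 kb downstream, FLI1-KO over WT moved from 0.898 to 1.35 with IFN-γ and from 0.965 to 1.37 without. At intron 1 of CD74 it moved from 0.736 to 1.17 with IFN-γ, and the IFN-γ ratio in WT cells from 1.16 to 0.654. The cause was not tested.

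No paired analysis was possible because each group has 1 library. Without replicates, differences between cultures cannot be told from those between conditions. Peaks just under the significance limit are missing from a list, and at regions of few tags the intervals span ratios of over 2-fold.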
